A study of Mus musculus with 18 samples.

Results

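The genes described here make, sense, move and export cholesterol in the 3 main epithelial populations of the virgin mouse mammary gland. The set holds 29 of the 52489 annotated genes in the count tables. They are 7 enzymes of the mevalonate arm, 11 of the sterol arm, 5 genes of the SREBP control system, 4 of intracellular sterol traffic and 2 exporters. They were chosen by function, from a list of symbols, and their counts were not part of the rule. Earlier results of these data were known when the list was chosen. The list holds no lipoprotein receptor, so uptake is represented by Npc1 and Npc2, which release cholesterol from lysosomes after lipoproteins are taken up while receptors form a separate list. RNA came from sorted cells of 6 nulliparous mice, 12 weeks of age and untreated. Every mouse carried the MMTV-Cre transgene, in which a viral promoter active in mammary epithelium drives Cre recombinase; the labels name no floxed allele and no group without the transgene. Each of 6 numbered samples gave a basal library (CD49f high, CD61 positive), a library of alveolar progenitors (AP, CD49f low, CD61 positive) and a library of hormone-sensing luminal cells (HSL, CD49f low, CD61 negative), 18 in all; the labels do not say in words that a sample number marks 1 animal. The sort also stained EpCAM and a lineage mix against CD31, CD45 and Ter119.

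Cells make cholesterol from acetyl-CoA. The mevalonate arm builds farnesyl pyrophosphate, which also feeds protein prenylation, ubiquinone and dolichol, and the sterol arm turns it into squalene, lanosterol and cholesterol. When membrane sterol is low, SCAP carries the SREBP transcription factors from the endoplasmic reticulum to the Golgi for cleavage, and they raise transcription of the enzymes; the INSIG proteins hold SCAP back when sterol is high. Surplus sterol is esterified by SOAT1 or exported by ABCA1 and ABCG1, which are targets of the LXR nuclear receptors. In the mammary gland cholesterol is a component of the membrane that wraps the milk fat globule.

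SREBP factors bind sterol regulatory elements, usually beside CCAAT boxes for the factor NF-Y or GC boxes for SP1. RefSeq promoter windows (build GRCm38.p6, 250 bases before to 50 after a start site) were matched for 23 of the 29 genes; Fdft1, Fdps, Sqle, Stard4, Npc1 and Abcg1 were not matched. The sequence TCACNCCAC, a form of the sterol regulatory element, was searched on both strands and was present in a window of 1 of the 23 genes, Hmgcs1, against 1.34% of the 11608 tested genes with a window. CCAAT on either strand was present for 20 of 23, against 42.3%. GGGCGG, an SP1 box, was present for 22 of 23, against 65.4%, and the E-box CACGTG for 6 of 23, against 11.1%. Matches of different motifs may overlap, and a match is a description of the window. The 250 bases before the start site are printed, 5′ to 3′ on the gene's strand, for the gene with the SREBP match, for 2 sterol enzymes that were higher in both luminal populations, and for Soat1, which was lowest in AP. Capitals mark TCACNCCAC and CCAAT, the latter as ATTGG where it lies on the opposite strand.
Hmgcs1 (chr13:119690101-119690350, plus strand): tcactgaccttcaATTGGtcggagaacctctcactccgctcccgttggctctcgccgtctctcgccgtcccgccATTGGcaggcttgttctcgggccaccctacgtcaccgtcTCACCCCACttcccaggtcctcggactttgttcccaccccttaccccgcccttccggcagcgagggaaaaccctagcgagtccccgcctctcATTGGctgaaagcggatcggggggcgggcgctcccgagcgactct
Msmo1 (chr8:64733579-64733828, minus strand): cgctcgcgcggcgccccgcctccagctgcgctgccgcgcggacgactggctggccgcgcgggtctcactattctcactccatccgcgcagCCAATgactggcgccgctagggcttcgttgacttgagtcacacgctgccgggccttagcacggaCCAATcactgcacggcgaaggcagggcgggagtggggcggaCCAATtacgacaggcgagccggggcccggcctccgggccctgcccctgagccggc
Ebp (chrX:8193513-8193762, minus strand): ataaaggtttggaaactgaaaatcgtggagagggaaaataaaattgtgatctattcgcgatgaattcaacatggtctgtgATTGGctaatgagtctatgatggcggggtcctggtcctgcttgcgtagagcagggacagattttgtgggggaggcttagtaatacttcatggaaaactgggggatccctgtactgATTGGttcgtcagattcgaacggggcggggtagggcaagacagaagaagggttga
Soat1 (chr1:156474329-156474578, minus strand): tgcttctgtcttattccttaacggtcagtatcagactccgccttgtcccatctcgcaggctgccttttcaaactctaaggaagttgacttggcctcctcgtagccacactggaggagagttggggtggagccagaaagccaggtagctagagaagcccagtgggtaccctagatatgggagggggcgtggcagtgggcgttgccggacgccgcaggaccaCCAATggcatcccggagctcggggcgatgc
In the window of Hmgcs1 the SREBP match TCACCCCAC ran from -137 to -129 relative to the start site, with CCAAT boxes that began at -237, -176 and -45 and another, past the printed bases, at 10. Msmo1 held 3 CCAAT boxes, beginning at -160, -96 and -55. Ebp held 2, beginning at -170 and -55, and Soat1 had 1, beginning at -30. Positions count from RefSeq start sites, which can differ from those of GENCODE M21. The GENCODE span of Msmo1 starts upstream of its 3 boxes, at chr8:64733792, so these boxes lie inside that span. The last bases of 27 of the 31 windows matched a GENCODE transcript, and those of the Hmgcs1 window did not.

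Levels are given as scaled CPM (gene counts relative to the library total, scaled with TMM factors), and differences as log2 fold changes ± standard error (SE), positive where the population named first is higher. Calls rest on the quasi-likelihood test of edgeR over 16471 genes, with an adjusted p under 0.05. Libraries held 29899462 to 91095830 gene counts in basal, 37391691 to 62505465 in AP and 26516293 to 52404937 in HSL. The populations carried their defining transcripts: all 5 basal markers (Krt14, Krt5, Acta2, Trp63, Mylk) were lower in AP and HSL than in basal libraries, all 4 AP markers (Kit, Elf5, Cd14, Lalba) were higher in AP than in HSL, and all 4 hormone-sensing markers (Esr1, Pgr, Prlr, Foxa1) were higher in HSL than in AP. The 3 libraries of sample 1 stood apart from the other 15 on the third principal component, at scores of 76.05 to 90.87 against at most 19.47. In bulk RNA, fewer cells of a type and less RNA per cell cannot be told apart.

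Some of the 29 genes share their sequence span with another annotated gene, which limits how their counts can be read, since the counting method is not given in the sources used here. Mvd, which decarboxylates mevalonate pyrophosphate, lies wholly inside Gm20388 and was listed at 0 in all 18 libraries, so 28 genes could be tested. Fdps, which makes farnesyl pyrophosphate, shares 90.7% of its exon bases with other genes and stood at 0.322 to 1.95 CPM. Lss shares 70.6%, Npc1 36.9%, Hmgcs1 34.3%, Fdft1 20.9%, Scap 18.6% and Idi1 10.7% of their exon bases, and each of the others under 5%. Levels and folds of these 8 genes, Mvd included, are uncertain for that reason.

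Per kilobase of exon, the most abundant transcripts in basal libraries were the SREBP genes, with Srebf2 at 57.2 and Srebf1 at 41.9 CPM per kb. In AP libraries Sqle (63.0), Srebf2 (57.7), Ebp (57.5) and Srebf1 (56.8) stood close together. In HSL libraries Ebp (104) and Sqle (100 CPM per kb) came first, above Srebf2 (68.5). Apart from Mvd, Idi1 was lowest in each population, at 0.237, 0.520 and 0.275 CPM per kb in basal, AP and HSL libraries. Stard4 stood at 0.355 CPM per kb in HSL, next above Idi1. Counts may include intronic reads, so orders between genes are approximate.

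Of the 6 tested enzymes of the mevalonate arm, 1 was higher in AP than in basal libraries (21.5% of all genes were higher and 23.1% lower, 44.7% together). In HSL libraries 3 exceeded the basal level and 1, Acat2, fell short of it (27.8% and 30.6% of all genes, 58.4% together). Pmvk, which phosphorylates phosphomevalonate, was at a lowest, median and highest level of 10.6, 11.6 and 16.8 CPM in basal libraries, 20.5, 26.2 and 28.3 in AP ones and 15.4, 19.5 and 24.6 in HSL ones. All AP libraries were above all basal libraries, and HSL libraries lay between them with overlap. Pmvk was higher in AP than in basal libraries by 1.02 ± 0.14 (adjusted p = 1.12e-05, higher in 6 of 6 sample numbers) and in HSL than in basal by 0.67 ± 0.14 (adjusted p = 0.000558, 6 of 6). When sample number was a block it was lower in HSL than in AP (-0.36 ± 0.13, adjusted p = 0.0316). Acat2, the cytosolic thiolase at the start of the route, went the other way. Its levels were 25.7, 29 and 40.1 CPM in basal and 16.9, 19.9 and 22.4 in HSL libraries, which did not overlap, and it was lower in HSL by -0.62 ± 0.20 (adjusted p = 0.0129, lower in 6 of 6). AP libraries spread over that whole range, from 15.3 to 42.1 CPM, and when sample number was a block Acat2 was lower in AP than in basal (-0.37 ± 0.15, adjusted p = 0.0455).

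Hmgcs1, which makes HMG-CoA, was at 20.6, 29.1 and 42.6 CPM in basal and 31.0, 44.8 and 102 in HSL libraries. The groups overlapped, and Hmgcs1 was higher in HSL by 0.77 ± 0.27 (adjusted p = 0.0192, 5 of 6). In AP libraries it ranged from 30.7 to 56.3 CPM, and it was higher than in basal with the block (0.48 ± 0.16, adjusted p = 0.0212). Fdps was higher in HSL than in basal libraries by 1.12 ± 0.45 (adjusted p = 0.0397, 5 of 6), at 1.44 ± 0.312 against 0.662 ± 0.635 CPM (SD, n = 6 libraries). Without sample 1 Fdps was higher in HSL than in basal by 1.77 ± 0.32 (adjusted p = 0.000176), and it was also called for AP against basal (0.89 ± 0.32, adjusted p = 0.0298) and HSL against AP (0.88 ± 0.31, adjusted p = 0.0296). Mvk, mevalonate kinase, stood at 12.5 ± 4.54 CPM in basal libraries, 9.17 ± 4.61 in AP ones and 14.3 ± 1.69 in HSL ones and was not called in any comparison. Idi1, which isomerises isopentenyl pyrophosphate, stood at 0.718 ± 0.681, 1.58 ± 0.744 and 0.833 ± 0.272 CPM and was not called either. Without sample 1 Mvk and Idi1 were also called. Mvk was then lower in AP than in basal (-0.53 ± 0.16, adjusted p = 0.0107) and higher in HSL than in AP (0.95 ± 0.16, adjusted p = 0.000153), and Idi1 was higher in AP than in basal (1.55 ± 0.32, adjusted p = 0.000686). When sample number was a block Mvk was called for AP against basal (adjusted p = 0.0473) and HSL against AP (0.00543), and Idi1 for AP against basal (0.00156) and HSL against AP (0.0231).

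In the sterol arm 8 of 11 enzymes (72.7%) were higher in AP than in basal libraries, against 21.5% of all genes. HSL libraries exceeded basal ones for 7 (63.6%) and fell short for 1 (9.09%), against 27.8% and 30.6% of all genes. The median log2 fold change of the arm was 0.66 in AP and 1.23 in HSL, against -0.001 and -0.064 over all genes. Squalene epoxidase (Sqle, chr15:59315077-59331192, plus strand, GRCm38), a rate-controlling oxygenase, was at 55.9, 70.3 and 143 CPM in basal libraries, 140, 166 and 243 in AP ones and 195, 293 and 335 in HSL ones. The lowest HSL library lay above the highest basal library, while AP and basal met at the basal library of sample 1. Sqle was 2.14-fold higher in AP than in basal (1.10 ± 0.22, adjusted p = 0.000397) and 3.4-fold higher in HSL than in basal (1.77 ± 0.22, adjusted p = 1.7e-06), each in 6 of 6 sample numbers. Between HSL and AP it differed by 0.67 ± 0.21 (adjusted p = 0.0182, 5 of 6), and sample 1 went the other way.

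**Figure D1:**
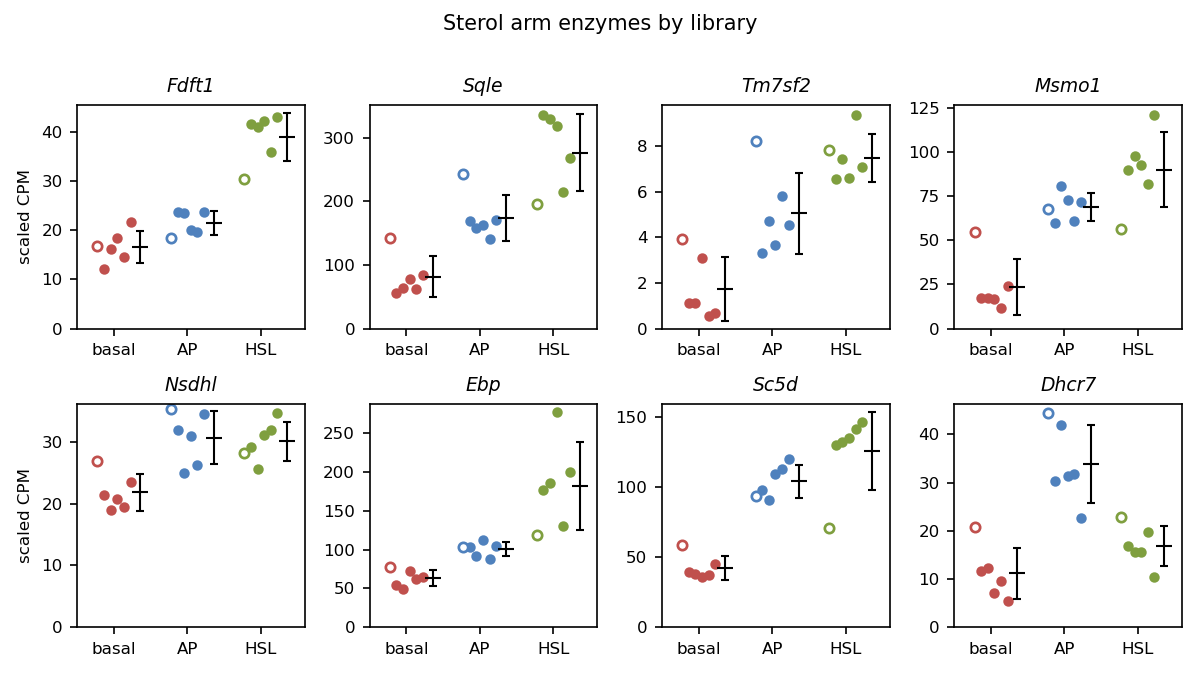
Scaled CPM of 8 sterol arm enzymes in each library (vertical axes from 0; points are libraries in order of sample number, open circles are sample 1, bars are the mean ± SD of 6). Msmo1 and Sc5d are low in basal libraries and high in both luminal populations, Ebp and Fdft1 are highest in HSL, and Dhcr7 is highest in AP.

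Msmo1, the methylsterol oxygenase, was at 11.5, 17.3 and 54.6 CPM in basal libraries, 59.5, 69.8 and 80.5 in AP ones and 56.6, 91.2 and 121 in HSL ones. Neither luminal population overlapped the basal one, and the basal value of 54.6 was that of sample 1, with the next at 24.1 CPM. Msmo1 was 2.91-fold higher in AP (1.54 ± 0.29, adjusted p = 0.000264) and 3.8-fold higher in HSL (1.93 ± 0.29, adjusted p = 1.81e-05) than in basal libraries. Sc5d, a sterol desaturase late in the route, was at 36.2, 38.7 and 58.5 CPM in basal libraries, 90.7, 104 and 120 in AP ones and 70.6, 133 and 146 in HSL ones. Both luminal populations lay above all basal libraries; Sc5d was higher by 1.3 ± 0.16 in AP (adjusted p = 2.77e-06) and 1.57 ± 0.16 in HSL (adjusted p = 1.79e-07). Between HSL and AP neither gene was called, and without sample 1 both were higher in HSL, Msmo1 by 0.46 ± 0.16 (adjusted p = 0.0280) and Sc5d by 0.34 ± 0.09 (adjusted p = 0.00433).

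Ebp, the sterol isomerase, and Fdft1, squalene synthase, stepped up across the 3 populations. Ebp was at 49.7, 63.8 and 77.0 CPM in basal libraries, 87.3, 103 and 112 in AP ones and 119, 181 and 276 in HSL ones, with no overlap between any pair of populations. It was higher in AP than in basal by 0.66 ± 0.17 (adjusted p = 0.00369), in HSL than in basal by 1.51 ± 0.17 (adjusted p = 5.73e-07) and in HSL than in AP by 0.86 ± 0.17 (adjusted p = 0.000576), in 6 of 6 sample numbers each. Fdft1 was at 12.2, 16.5 and 21.7 CPM in basal libraries, 18.5, 21.8 and 23.8 in AP ones and 30.4, 41.4 and 43.1 in HSL ones. HSL stood clear of both other populations, by 1.23 ± 0.14 over basal (adjusted p = 4.85e-07) and 0.86 ± 0.14 over AP (adjusted p = 8.06e-05). The step from basal to AP was 0.37 ± 0.14 (adjusted p = 0.0320) with overlapping libraries.

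Dhcr7 (chr7:143823145-143848410, plus strand), the reductase that completes cholesterol, was highest in AP libraries. It was at 5.47, 10.7 and 20.7 CPM in basal libraries, 22.7, 31.5 and 44.4 in AP ones and 10.5, 16.2 and 22.8 in HSL ones. AP lay above basal without overlap and met HSL only at the edges (22.7 against 22.8 CPM). Dhcr7 was 3.01-fold higher in AP than in basal (1.59 ± 0.27, adjusted p = 0.000101) and 2-fold lower in HSL than in AP (-1.0 ± 0.27, adjusted p = 0.00611), in 6 of 6 sample numbers each. For HSL against basal it was not called, and it was higher in HSL when sample number was a block (0.67 ± 0.15, adjusted p = 0.00109) and without sample 1 (0.73 ± 0.23, adjusted p = 0.0117).

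Cyp51, the lanosterol demethylase, was the 1 sterol enzyme lower in HSL than in basal libraries. Its levels were 80.4, 98.1 and 151 CPM in basal libraries, 59.3, 91.4 and 143 in AP ones and 51.5, 65.2 and 84.9 in HSL ones. Basal and HSL libraries overlapped at the edge, and the difference was -0.68 ± 0.20 (adjusted p = 0.00664, lower in 6 of 6). With the block it was also lower in HSL than in AP (-0.43 ± 0.14, adjusted p = 0.0194). Tm7sf2, a sterol reductase, was low in counts, at 1.74 ± 1.41 CPM in basal libraries, 5.04 ± 1.78 in AP ones and 7.47 ± 1.04 in HSL ones (SD, n = 6). It was higher in AP by 1.53 ± 0.41 (adjusted p = 0.00533) and in HSL by 2.10 ± 0.42 (adjusted p = 0.000308). Nsdhl, a dehydrogenase of sterol demethylation, was higher by 0.49 ± 0.12 in AP (adjusted p = 0.00252) and 0.46 ± 0.12 in HSL (adjusted p = 0.00274) than in basal libraries, where it ranged from 18.9 to 26.9 CPM.

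Hsd17b7, a sterol ketone reductase, stood at 21.1 ± 8.43 CPM in basal libraries, 29.1 ± 7.62 in AP ones and 20.1 ± 5.11 in HSL ones and was not called. Within sample numbers its AP library was above both the basal and the HSL library in 6 of 6. When sample number was a block it was higher in AP than in basal (0.51 ± 0.12, adjusted p = 0.00288) and lower in HSL than in AP (-0.53 ± 0.12, adjusted p = 0.00264). Lss, which cyclises squalene epoxide to lanosterol, stood at 11 ± 4.23, 12.1 ± 4.46 and 13.1 ± 2.58 CPM and was not called in any comparison.

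Summed over the 11 sterol arm enzymes, scaled counts ran from 316 to 605 CPM in basal (median 364), 593 to 821 in AP (median 661) and 638 to 1030 in HSL libraries (median 923). The basal maximum of 605 CPM belonged to sample 1; the other basal libraries reached at most 437. The mevalonate arm, which lacks Mvd counts, summed to 68.6 to 123, 82.6 to 139 and 92.9 to 152 CPM, with overlap between all populations. These sums weight abundant and long transcripts most.

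**Figure D2:**
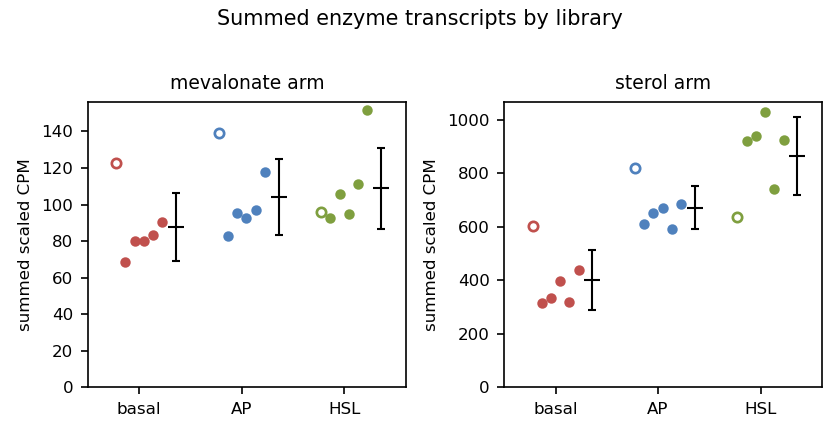
Summed scaled CPM of the enzymes of each arm by library (points are libraries, open circles sample 1, bars mean ± SD of 6). For the sterol arm the AP and HSL libraries lie above every basal library other than that of sample 1, and for the mevalonate arm the populations overlap.

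Of the 5 genes of SREBP control 1 was higher in AP and 3 in HSL than in basal libraries, and none of these differences reached 2-fold. The share in AP, 20%, stood at the background of 21.5% of all genes, and that in HSL was 60.0% against 27.8%. Srebf1, whose product drives fatty acid and sterol genes, was at 134, 175 and 231 CPM in basal libraries, 209, 236 and 293 in AP ones and 231, 278 and 333 in HSL ones. The populations overlapped. Srebf1 was higher in AP than in basal by 0.44 ± 0.14 (adjusted p = 0.0162, 4 of 6 sample numbers) and in HSL than in basal by 0.63 ± 0.14 (adjusted p = 0.000934, 6 of 6). Its SREBP-1a and SREBP-1c transcripts cannot be separated in gene counts. Srebf2, whose product drives mainly sterol genes, stood at 290 ± 34.9 CPM in basal libraries, 293 ± 38.4 in AP ones and 348 ± 54.5 in HSL ones and was not called in any comparison. When sample number was a block it was higher in HSL than in basal (0.26 ± 0.09, adjusted p = 0.0200) and than in AP (0.25 ± 0.09, adjusted p = 0.0313).

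Scap, the SREBP escort, was at 85.6, 101 and 187 CPM in basal libraries, 96.8, 114 and 199 in AP ones and 161, 187 and 247 in HSL ones. The highest basal and AP values both belonged to sample 1. Scap was higher in HSL than in basal by 0.78 ± 0.21 (adjusted p = 0.00377) and than in AP by 0.59 ± 0.21 (adjusted p = 0.0302), in 6 of 6 sample numbers each. The 2 INSIG genes, which encode the proteins that retain SCAP, went opposite ways between the luminal populations. Insig2 was at 45.7, 84.6 and 116 CPM in AP and 93.0, 169 and 195 in HSL libraries, higher in HSL by 0.93 ± 0.21 (adjusted p = 0.0016, 6 of 6). It was also higher in HSL than in basal libraries, by 0.80 ± 0.21 (adjusted p = 0.00293). Insig1, itself an SREBP target, was at 13.8, 18.1 and 47.1 CPM in AP and 7.28, 12.2 and 16.7 in HSL libraries. It was lower in HSL by -0.97 ± 0.32 (adjusted p = 0.0232, 5 of 6), and basal libraries lay between 8.67 and 25.9 CPM. Without sample 1, whose AP library held the value of 47.1, Insig1 was lower in HSL by -0.79 ± 0.24 (adjusted p = 0.0139). With the block it was also higher in AP than in basal libraries (0.66 ± 0.20, adjusted p = 0.0130).

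**Figure D3:**
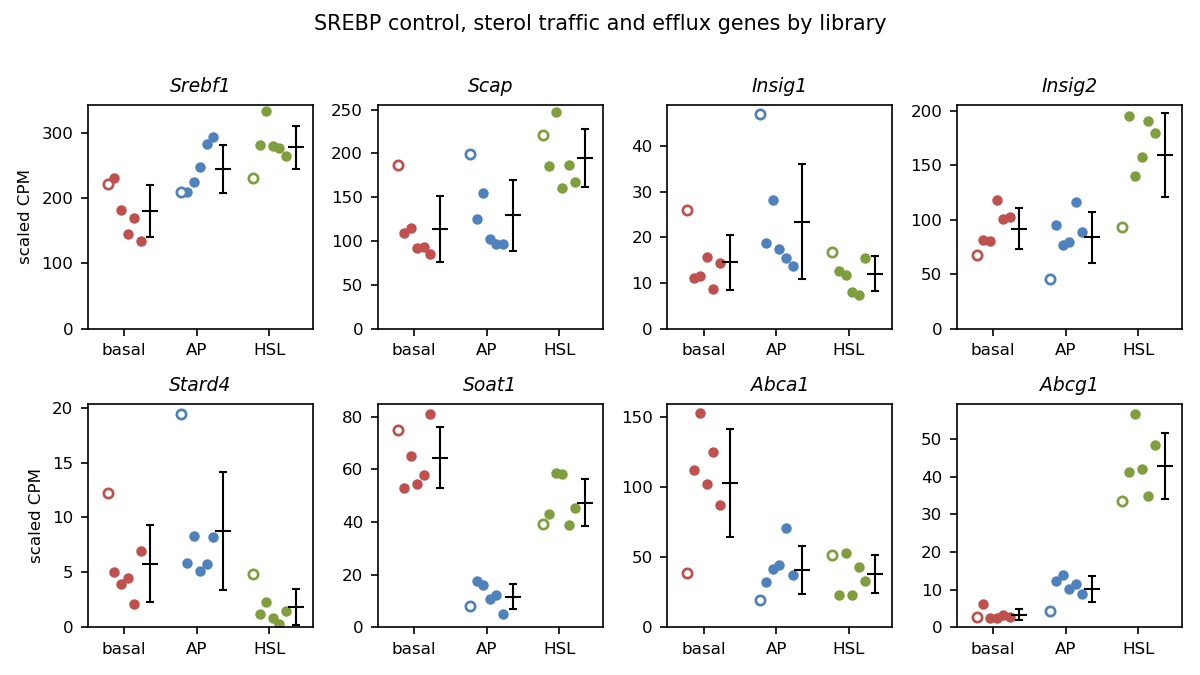
Scaled CPM of 8 genes of SREBP control, sterol traffic and efflux in each library (vertical axes from 0; open circles are sample 1, bars are the mean ± SD of 6). Soat1 is low in AP alone, at 5.18 to 17.5 CPM, Stard4 is lowest in HSL, Abca1 is highest in basal and Abcg1 in HSL libraries.

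All 4 sterol traffic genes were called between the luminal populations, 2 in each direction, where 39.9% of all genes were called (19.8% higher and 20.1% lower in HSL). Soat1 (chr1:156424525-156474331, minus strand), which esterifies cholesterol for storage, was at 52.9, 61.4 and 81.1 CPM in basal libraries, 5.18, 11.5 and 17.5 in AP ones and 38.8, 44.3 and 58.6 in HSL ones. The AP libraries lay below every library of the other populations. Soat1 was 5.53-fold lower in AP than in basal (-2.47 ± 0.24, adjusted p = 1.61e-07) and 4.07-fold higher in HSL than in AP (2.02 ± 0.24, adjusted p = 3.72e-06), in 6 of 6 sample numbers each, and it was not called for HSL against basal. Stard4, a soluble carrier that moves cholesterol between membranes, was at 2.12, 4.79 and 12.2 CPM in basal libraries, 5.16, 7.03 and 19.4 in AP ones and 0.282, 1.35 and 4.90 in HSL ones. HSL did not overlap AP. Stard4 was 4.72-fold lower in HSL than in AP (-2.24 ± 0.56, adjusted p = 0.00363) and 3.11-fold lower in HSL than in basal (-1.64 ± 0.55, adjusted p = 0.0157), in 6 of 6 sample numbers each. In every population its highest library was that of sample 1.

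Npc2, which hands cholesterol to NPC1 in the lysosome, was at 92.6, 115 and 123 CPM in basal libraries, 107, 124 and 139 in AP ones and 151, 157 and 201 in HSL ones. HSL stood clear of both, by 0.58 ± 0.10 over basal (adjusted p = 6.97e-05) and 0.45 ± 0.10 over AP (adjusted p = 0.0016). Npc1, the membrane partner, was at 22.8, 28.8 and 55.2 CPM in AP and 15.7, 22.7 and 27.6 in HSL libraries and was lower in HSL by -0.59 ± 0.22 (adjusted p = 0.0414, 5 of 6). For HSL against basal Npc1 was not called, and it was lower in HSL when sample number was a block (-0.50 ± 0.14, adjusted p = 0.00728).

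The 2 exporters had opposite patterns against basal libraries. Abca1 (chr4:53030787-53159895, minus strand), which loads cholesterol onto lipid-poor apolipoproteins, was at 39.1, 107 and 153 CPM in basal libraries, 19.6, 39.5 and 71.2 in AP ones and 23.1, 37.9 and 53.2 in HSL ones. The basal library of sample 1, at 39.1 CPM, lay within the luminal range, and the other 5 basal libraries, from 87.6 CPM, lay above it. Abca1 was lower in AP by -1.32 ± 0.32 (adjusted p = 0.00247, 6 of 6 sample numbers) and in HSL by -1.44 ± 0.32 (adjusted p = 0.000867, 5 of 6). Without sample 1 the differences were -1.35 ± 0.26 (adjusted p = 0.000424) and -1.74 ± 0.26 (adjusted p = 2.65e-05). Abcg1 (chr17:31057675-31117988, plus strand), which passes cholesterol to lipoprotein particles, was at 2.46, 2.84 and 6.30 CPM in basal libraries, 4.26, 10.9 and 13.9 in AP ones and 33.5, 41.8 and 56.7 in HSL ones. HSL overlapped neither other population. Abcg1 was 12.6-fold higher in HSL than in basal (3.65 ± 0.29, adjusted p = 7.37e-09) and 4.21-fold higher in HSL than in AP (2.07 ± 0.27, adjusted p = 1.15e-05), in 6 of 6 sample numbers each. It was also higher in AP than in basal, by 1.58 ± 0.27 (adjusted p = 0.000107).

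Macrophages express both exporters and Soat1, and leukocyte transcripts moved with the basal population. Summed over 8 markers (Ptprc, Csf1r, Adgre1, Cd68, C1qa, C1qb, Tyrobp, Lyz2), libraries held 106 to 506 CPM in basal, 13.9 to 119 in AP and 7.84 to 179 in HSL. Of the 8, 4 were lower in AP and 5 in HSL than in basal libraries, and the sums of HSL and AP libraries overlapped. Ptprc and Adgre1 were at 0 in 1 HSL library each. The basal library of sample 1 held the highest marker sum, 506 CPM. Of 5 endothelial markers, 5 were lower in AP and in HSL than in basal libraries. Their sums were 47.9 to 160 CPM in basal, 18 to 55.8 in AP and 11.8 to 30.2 in HSL libraries. Fibroblast markers summed to 562 to 885 CPM in basal, 470 to 1210 in AP and 31.6 to 87.7 in HSL libraries. Of these 5 markers, 3 (Col1a1, Col3a1, Dpt) were higher and 1 (Dcn) lower in AP than in basal. All 5 were lower in HSL than in basal and than in AP. Adipocyte markers (Adipoq, Plin1, Plin4, Cidec, Fabp4, Cfd) summed to 90.3 to 296 CPM in basal, 25.4 to 123 in AP and 10.6 to 58.8 in HSL libraries. Most of that sum was Fabp4, which capillary endothelium also expresses, at 177 ± 67.6, 53.0 ± 32.9 and 30.6 ± 16 CPM and lower in both luminal populations than in basal. The other 5 reached at most 3.45 CPM, and Adipoq at most 0.434. The part of other cell types in the levels of Abca1, Abcg1 and Soat1 was not tested.

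Counted over the 28 genes tested, AP libraries exceeded basal ones for 11 (39.3%) and fell short for 2 (7.14%), against 21.5% and 23.1% of all genes (44.7% in either direction). The 2 lower genes were Soat1 and Abca1. The median log2 fold change was 0.46, against -0.001 over all genes. Calls for Srebf1 and Fdft1 were lost when single samples were left out, at adjusted p-values of 0.0746 to 0.0898 for Srebf1 (without sample 4, 5 or 6) and 0.0630 to 0.153 for Fdft1 (without sample 2, 3 or 5) from edgeR. Without sample 1, 15 were higher and 4 lower, and blocking on the sample number it was also 15 and 4.

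For HSL against basal 15 (53.6%) were higher and 4 (14.3%) lower, against 27.8% and 30.6% of all genes (58.4% in either direction), with a median of 0.59 against -0.064. The 4 lower genes were Acat2, Cyp51, Stard4 and Abca1. These counts share the basal libraries with the counts for AP. The call for Fdps was lost when any of samples 2 to 6 was left out (adjusted p = 0.0747 to 0.148 from edgeR), that for Hmgcs1 without sample 3 (0.0614) or 5 (0.0623), and that for Stard4 without sample 2 (0.0509) or 6 (0.0587).

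Between the luminal populations HSL exceeded AP for 8 (28.6%) and fell short for 4 (14.3%), against 19.8% and 20.1% of all genes (39.9% in either direction), with a median of 0.26 against -0.011. Those shares are closer to the background than the ones against basal libraries. Fdft1, Sqle, Ebp, Scap, Insig2, Soat1, Npc2 and Abcg1 were higher, and Dhcr7, Insig1, Stard4 and Npc1 lower. The lower count was 8 when sample number was a block, 7 without sample 1 and 2 without sample 4. Calls for Scap, Npc1, Sqle and Insig1 were lost when single samples were left out, with adjusted p-values of 0.0691 to 0.0994 for Scap (any of samples 2 to 6), 0.0556 to 0.101 for Npc1 (any of samples 2 to 6), 0.0618 to 0.0881 for Sqle (sample 2, 3, 4 or 6) and 0.0605 to 0.0644 for Insig1 (sample 3 or 4) from edgeR. When libraries were scaled by total counts alone, Npc2, Sqle and Scap were not called (adjusted p = 0.0822, 0.102 and 0.192).

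**Figure D4:**
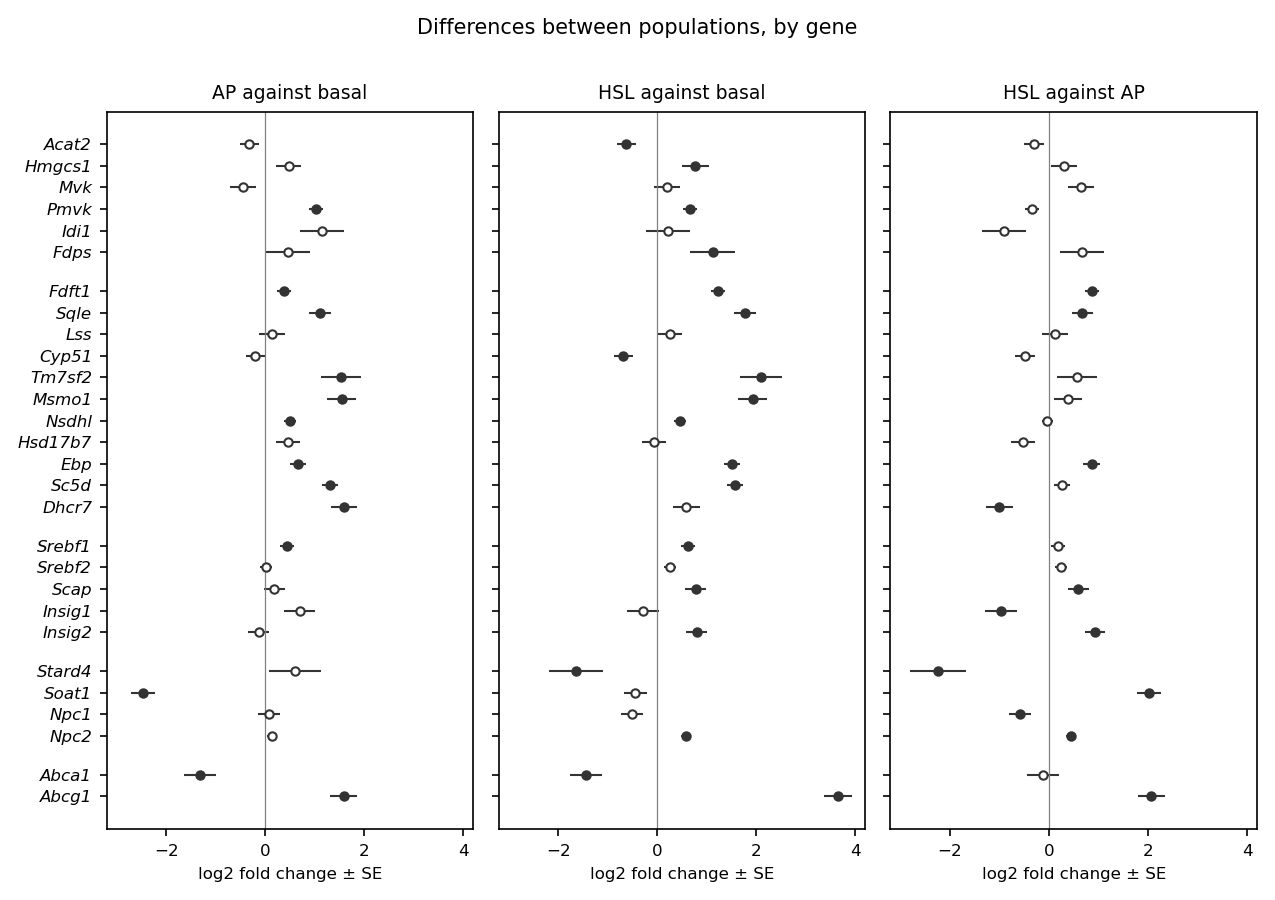
Log2 fold change ± SE of the 28 tested genes in the 3 comparisons, grouped from top to bottom as mevalonate arm, sterol arm, SREBP control, traffic and efflux (filled points are called at an adjusted p under 0.05, open points are not). Most sterol arm genes lie right of 0 against basal libraries, and between HSL and AP Stard4 (-2.24), Abcg1 (2.07) and Soat1 (2.02) differ most.

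Libraries of the populations did not overlap for 6 of the 28 genes between AP and basal, 9 between HSL and basal, and 6 between HSL and AP. Over all genes the shares were 25.9%, 36.9% and 20.6%, so these counts stood near the background.

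Genes next to these pathways were read from lists drawn up by function. Of 5 tested lipoprotein receptor genes 4 were lower and 1 higher in AP than in basal libraries, and HSL gave the same counts (over all genes 21.5% were higher and 23.1% lower in AP, and 27.8% and 30.6% in HSL). Lrp1, a large endocytic receptor, stood at 327 ± 124 CPM in basal libraries, 17.8 ± 8.89 in AP ones and 17.4 ± 5.01 in HSL ones (log2 -4.20 ± 0.36, adjusted p = 3.37e-08, and -4.23 ± 0.37, adjusted p = 1.92e-08). Vldlr, the receptor for very low density lipoprotein, was lower in HSL than in AP by -2.60 ± 0.28 (adjusted p = 1.75e-06), at 1.71 ± 0.701 against 10.4 ± 2.32 CPM. Of 11 sterol hydrolysis and transfer genes AP exceeded basal for 3 and fell short for 2, HSL did so against basal for 4 and 4, and against AP for 5 and 3. Against basal these shares, 27.3% and 18.2% in AP and 36.4% in each direction in HSL, stood near those of all genes, and against AP they were 45.5% and 27.3% where 19.8% and 20.1% of all genes were higher and lower. Lipa, the lysosomal lipase that frees cholesterol from esters, was at 37.1 ± 4.83 CPM in basal libraries, 290 ± 116 in AP ones and 20.5 ± 9.73 in HSL ones. It was higher in AP than in basal by 2.97 ± 0.33 (adjusted p = 8.54e-07) and lower in HSL than in AP by -3.82 ± 0.35 (adjusted p = 2.96e-07). Stard3, a sterol carrier of late endosomes, was higher in HSL than in basal by 1.87 ± 0.14 (adjusted p = 1.99e-09).

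The counts in the next lists stand beside 21.5% higher and 23.1% lower over all genes for AP against basal, 27.8% and 30.6% for HSL against basal, and 19.8% and 20.1% for HSL against AP. Among LXR genes and further LXR targets AP exceeded basal for 1 of 6 and fell short for 2, HSL did so against basal for 2 and 2, and against AP for 4 and 1. Lpcat3, a phospholipid remodelling enzyme, was at 132 ± 13.4 CPM in basal libraries, 148 ± 21.8 in AP ones and 333 ± 45.7 in HSL ones (HSL against AP 1.17 ± 0.12, adjusted p = 9.84e-07). Abcg4 and Arl4c of the same list were highest in basal libraries. Abcg4, a sterol exporter related to Abcg1, stood at 9.37 ± 2.59 CPM in basal libraries, 0.414 ± 0.385 in AP ones and 1.79 ± 0.839 in HSL ones (AP against basal -4.50 ± 0.54, adjusted p = 1.82e-06). Arl4c, a small GTPase, stood at 31.6 ± 10.2, 11.2 ± 4.73 and 3.40 ± 1.81 CPM (HSL against basal -3.2 ± 0.36, adjusted p = 5.2e-07). Of 7 tested genes of SREBP cleavage and sterol-regulated degradation AP exceeded basal for 4 and fell short for 2, HSL did so against basal for 3 and 1, and against AP for 3 and 1. Erlin1, a sterol-binding protein of the endoplasmic reticulum, was higher in HSL than in basal by 1.37 ± 0.17 (adjusted p = 2.29e-06). Of 12 genes of the isoprenoid branches AP exceeded basal for 3 and fell short for 3, HSL did so against basal for 3 and 4, and against AP for 3 and 3, shares of 25.0% to 33.3% that stood near those of all genes. Rabggta, a subunit of the enzyme that prenylates Rab proteins, was higher in HSL than in basal by 1.26 ± 0.14 (adjusted p = 5.71e-07).

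Sample 1 differed from the other samples in the enzymes as well as over all tested genes, where it stood apart on the third principal component. Of the 17 enzymes with counts, its basal library held the highest of the 6 basal values for 15 and its AP library the highest AP value for 11, whereas its HSL library held the highest HSL value for 3 and the lowest for 5. The matching counts over all genes were not made, so these counts cannot be read as particular to the enzymes. Basal Idi1 was at 2.08 CPM in sample 1 against at most 0.636 in the others, and Fdps at 1.95 against at most 0.517. In HSL libraries Sc5d was at 70.6 CPM in sample 1 against 130 to 146. Sample 1 also held the highest sum of leukocyte markers in each population, at 506 CPM against 106 to 479 in basal, 119 against 13.9 to 97.3 in AP and 179 against 7.84 to 96.4 in HSL. It held the lowest sum of the luminal markers Krt8, Krt18, Krt19 and Cldn3 in each, at 731 against 1090 to 2580, 6190 against 14700 to 16000 and 13800 against 24200 to 35200 CPM. The part of these in the enzyme levels was not tested. Without sample 1 no call on the 28 genes was lost in any comparison, 6 were gained between AP and basal, 4 between HSL and basal, 7 between HSL and AP, and the differences of Msmo1 grew to 2.00 ± 0.17 for AP and 2.46 ± 0.17 for HSL against basal (edgeR adjusted p = 7.78e-08 and 4.6e-09).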

How the data were processed

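RNA of 18 sorted mammary libraries was measured by sequencing, with cDNA from 2 ng of total RNA (Smart-Seq v4) and Nextera XT libraries, which do not mark the strand, per the labels' protocols. The authors deposited whole-number gene counts, per the file headers, with 52636 identifiers in each file. They also deposited RPKM values and a gene width for each identifier, used here only to check the files: summed counts were 87.01 to 89.88% of the library that the RPKM values imply, and the width in base pairs (other values beside the counts, as deposited) equals the genomic span for 85.6% of identifiers. Reads were placed on GRCm38, per the submitters' processing notes. Aligner and counter names are not in the labels or headers used here. Symbols, spans and exon lengths (protein-coding transcripts of the basic set) came from GENCODE M21, which matched 52489 identifiers; the other 147 were left out.

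Genes were kept by filterByExpr (edgeR 4.0.16, R 4.3.3; minimum count 10), which left 16471, and fitted with TMM factors by robust quasi-likelihood, using all 18 libraries and a mean for each population. P-values were adjusted by Benjamini-Hochberg over all genes tested. The SE of an edgeR fold is the size of the log2 fold change divided by the square root of the F statistic. Alternatives used DESeq2 1.42.0, limma-voom (limma 3.58.1), other scalings and filters, a term for the sample number, and subsets of samples. The scripts were tested on simulated counts. Group sizes of 6 limit the precision, and the p-values measure the spread between these libraries. The main fit holds no term for the sample number, so its p-values do not use the pairing described below.

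Libraries of the same sample number deviated together from their population means (r = 0.127 to 0.63 over all 18 pairs, across 16471 genes, which are not independent). The highest value was that of basal and AP libraries of sample 1. Of the 18 libraries, 17 correlated best with a library of their own number. Some pairs of different numbers exceeded the lowest of these values, such as AP of sample 4 with HSL of sample 6 (r = 0.222). The numbers were taken to pair the libraries, and values with the number as a block are given where they change a call. The genes, lists and tests were chosen with earlier results of these data known. All 29 genes are named; a fold is given where a gene was called, and related lists give up to 2 called genes with the smallest adjusted p per comparison. Motifs were searched on RefSeq promoter windows with Python 3.11.15.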

Additional observations from a re-analysis of the deposited data

Results flagged for a closer look

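In 16 of the 84 sets of 6 libraries (28 genes in 3 populations), 1 library stood apart from the other 5, with a gap to its nearest neighbour over 0.625 of the range. For independent values with a normal distribution chance gives about 1 in 20 such sets. Here the values were CPM without a log, and the sets share libraries and sample numbers. That rate therefore cannot tell how many of the 16 chance would give. Over all genes, where sample 1 also stood apart on the third principal component, no such count was made. Sample 1 was the library apart in 14 of the 16, and in 13 of those it was the highest. In basal libraries this held for Mvk (gap 0.741 of the range), Pmvk (0.633), Idi1 (0.819), Fdps (0.88), Sqle (0.671), Msmo1 (0.708) and Scap (0.71). In AP libraries it held for Mvk (0.709), Idi1 (0.661), Sqle (0.713), Hsd17b7 (0.644) and Stard4 (0.777), and in HSL libraries for Hsd17b7 (0.651). Sc5d in HSL libraries was the 1 case where sample 1 was lowest (0.788), at 70.6 CPM. The other two were Hmgcs1 in HSL libraries (0.632), where sample 6 stood at 102 CPM with the next at 57.2, and Abcg1 in basal libraries (0.755), where sample 2 stood at 6.3 CPM with the next at 3.4.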

How the results depend on the processing

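None of the 44 called folds changed direction under the 15 alternatives, and 16 of them stayed called under all of them, among them Soat1 and Abcg1 in HSL against AP. Samples 1 to 3 alone, which include the sample that stood apart, gave for AP over basal 5 genes higher and 1 lower, and for HSL over AP 2 and 1. For HSL over basal they gave 8 higher and 0 lower by edgeR (1 lower at an unadjusted p under 0.05; no other tool was run on these samples). Scaling by total counts alone gave 5 higher in HSL than in AP. With the replicate block, the pairing by sample number, 4 genes were lower in AP than in basal and 8 lower in HSL than in AP; it ended no call. Leaving out 1 sample number gave for AP over basal 9 to 15 genes higher and 2 to 4 lower, for HSL over basal 13 to 18 and 3 to 5, and for HSL over AP 6 to 12 and 2 to 7. The causes were not tested. Fdps was read at 0.322 to 1.95 CPM and Idi1 at 0.315 to 3.01 CPM; the part of depth in their spread was not tested.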
